A study of Mus musculus with 18 samples.

Results

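The uroplakin genes Upk1a, Upk1b, Upk2, Upk3a and Upk3b were followed array by array in normal mouse prostate and in prostate tumours of TRAMP mice. Their members were the probe sets (the groups of short DNA probes that report 1 transcript on an Affymetrix array) annotated with a uroplakin symbol and no other gene, whatever their brightness. This gave 9 of 45101 probe sets, for 5 of 18193 genes: 4 for Upk1b, 2 for Upk3b and 1 each for Upk1a, Upk2 and Upk3a. For genes with several, the probe set with the highest mean is given unless stated. The genes were chosen by their signal values on these arrays, some of which were already known to be high, so their levels are a description and no test of them is claimed.

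The series holds 9 arrays of normal prostates, taken from the ventral and dorsolateral lobes, and 9 arrays of tumours from TRAMP mice (Transgenic Adenocarcinoma of the Mouse Prostate). In this strain, as background, a probasin promoter drives the SV40 T antigens in prostate epithelium. The tissue in which each tumour began was not tested. Each array carried total RNA of 1 sample. Age, strain and tumour stage are not given in the sources used here, and no label states that replicates are different animals. A p-value here therefore reflects only how much these arrays varied, and precision is limited by their number. Levels below are log2(signal + 16), where signal is the deposited brightness; such differences are smaller than the true change where signal is low. A value is called dim if it fell below its own array's 40th percentile, 6.91 to 7.41 in these units.

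Uroplakins are the membrane proteins of the urothelium, the epithelium that lines the bladder, the ureters and part of the urethra. Upk1a and Upk1b are tetraspanins, which cross the membrane several times, while Upk2, Upk3a and Upk3b cross it a single time. Upk1a pairs with Upk2, and Upk1b pairs with Upk3a or Upk3b; the pairs leave the endoplasmic reticulum together and assemble into the rigid plaques on the surface of umbrella cells, the outermost urothelial layer. Upk3b is also a known transcript of mesothelium, the lining of the body cavity. Because whole tissue was measured, fewer cells of a type and less RNA per cell cannot be told apart.

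Several arrays stood apart. Normal prostates 3 and 5 and tumour 4 were the highest arrays for the mean of the uroplakins. For each uroplakin gene, by its probe set with the highest mean, the difference between the groups is also given without them. The array labelled normal prostate 9 went against its label: the mean of 6 measured genes of prostate secretion and identity was 5.93 there and at least 10.96 on the other normal arrays, while the mean of 6 seminal vesicle genes was 12.09. Tumours 6 and 8 were the closest of all 153 pairs of arrays (SD of their log2 differences 0.44 over 27292 probe sets, against 0.52 for the next pair), and nothing in the labels says whether they share a source. Spike-in controls added before labelling were bright on 6 normal and 5 tumour arrays (9.65 to 12.30) and near absent on 3 normal and 4 tumour arrays (4.94 to 5.35). Normal prostates 3 and 5 and tumour 4 belonged to the bright batch, and normal prostate 9 and tumours 6 and 8 to the other.

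Promoters are shown because the members were high on the same arrays. RefSeq sequence of GRCm38.p6 was matched by symbol for Upk1a, Upk3a and Upk3b. The 250 bases before the annotated start are given 5′ to 3′ on the strand of the gene: Upk1a at chr7:30612735-30612984 on the minus strand, Upk3a at chr15:85016891-85017140 on the plus strand and Upk3b at chr5:136038246-136038495 on the plus strand. Capitals mark matches on either strand to GATAA, bound by GATA factors, or to CCCGCCC, bound by Klf and Sp factors.
Upk1a: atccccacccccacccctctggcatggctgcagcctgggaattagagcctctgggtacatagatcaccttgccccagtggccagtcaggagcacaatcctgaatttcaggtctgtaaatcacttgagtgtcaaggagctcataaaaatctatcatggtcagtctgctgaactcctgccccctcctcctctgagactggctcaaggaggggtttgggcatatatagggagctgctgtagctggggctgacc
Upk3a: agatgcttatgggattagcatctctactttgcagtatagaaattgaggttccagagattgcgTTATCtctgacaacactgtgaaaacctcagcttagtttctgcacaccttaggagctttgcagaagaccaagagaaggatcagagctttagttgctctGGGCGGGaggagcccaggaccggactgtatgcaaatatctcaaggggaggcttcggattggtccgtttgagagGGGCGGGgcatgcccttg
Upk3b: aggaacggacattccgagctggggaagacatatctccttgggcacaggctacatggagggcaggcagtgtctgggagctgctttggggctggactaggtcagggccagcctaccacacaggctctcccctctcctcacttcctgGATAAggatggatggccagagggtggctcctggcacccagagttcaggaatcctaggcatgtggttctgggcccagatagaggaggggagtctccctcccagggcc
Upk3a held 1 match to GATAA and 2 to CCCGCCC, and Upk3b held 1 match to GATAA. Upk1a held neither sequence. Over 32851 promoter windows of the same length, 22.6% held GATAA and 23.4% held CCCGCCC. No match was found in the 3 windows to AACCNGTT, a Grhl3 sequence present in 1.79% of windows, or to a direct repeat of AGGTCA with 1 base between its copies, a sequence of Pparg with Rxra present in 0.0335%. Both strands were searched for each motif, no matches overlapped in the windows shown, and a match is a description of letters only.

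The tetraspanin Upk1a, the partner of Upk2, was the member whose level separated most of the normal prostates from most of the tumours. On the normal arrays it measured 8.23 at the lowest, 10.99 at the median and 13.21 at the highest. On the tumour arrays it measured 7.32 at the lowest, 7.93 at the median and 13.10 at the highest. Of the normal arrays, 3 and 5 were highest at 13.21 and 11.91, the arrays numbered 1, 2, 4, 6, 7 and 8 lay between 10.31 and 11.18, and normal prostate 9 stood at 8.23. Of the tumours, only number 4 exceeded 8.30. The groups overlapped through normal prostate 9 and tumour 4, and no array was dim. The means were 10.93 ± 1.33 (SD, n = 9) and 8.46 ± 1.77 (SD, n = 9), a difference of -2.48 ± 0.68 SE in tumours. It was -2.59 without normal prostates 3 and 5 and tumour 4, -2.82 without normal prostate 9, and -2.49 and -2.11 within the batches with and without bright spike-ins. Markers of other cells were lower in tumours as well. Of 6 prostate secretion and identity genes 4 were called lower (median difference -4.78), beside 7.44% of 18193 genes. Their mean was also low on normal prostate 9, but it was 6.50 on tumour 4, where Upk1a was high. Of 6 adipocyte genes 6 were called lower (median difference -4.00), with means of 6.10 to 13.00 on normal and 5.91 to 9.32 on tumour arrays. The adipocyte mean was 11.98 on normal prostate 9, where Upk1a was low. It was 6.10 on normal prostate 7, where Upk1a was 11.14. The part of these markers in the level of Upk1a was not tested.

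Upk2, the partner of Upk1a, was high on the same arrays, and its group means lay closer together than those of Upk1a; the difference between the genes was not tested. It measured 8.84, 9.32 and 13.41 at the lowest, median and highest normal array, and 8.45, 9.35 and 13.38 at the lowest, median and highest tumour. Normal prostate 3, tumour 4 and normal prostate 5 were its 3 highest arrays, at 13.41, 13.38 and 11.81. The next was tumour 5 at 10.55, and the other arrays lay between 8.45 and 9.81. The groups overlapped almost fully, with a difference of -0.17 ± 0.67 SE. It turned to 0.13 without normal prostates 3 and 5 and tumour 4, and ran from -0.62 without tumour 4 to 0.26 without normal prostate 3.

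The tetraspanin Upk1b and its partner Upk3a were high on those 3 arrays and on tumours 6 and 8 as well. Upk1b measured 8.18, 10.31 and 14.69 at the lowest, median and highest normal array, and 6.57, 10.60 and 14.42 at the lowest, median and highest tumour. Its 5 highest arrays were normal prostate 3 at 14.69, tumour 4 at 14.42, tumour 8 at 13.12, tumour 6 at 12.85 and normal prostate 5 at 12.71. Tumours 2, 9 and 1 were lowest, at 6.57, 6.58 and 7.38, with tumours 2 and 9 dim. The groups overlapped, the tumours spreading more widely than the normal prostates (SD 2.92 against 1.94, n = 9 each). The difference was -0.39 ± 1.07 SE, and its sign depended on the arrays used. It was -0.05 without normal prostates 3 and 5 and tumour 4, -0.90 without tumour 4 and 0.10 without normal prostate 3. Within the batches with and without bright spike-ins it was -1.10 and 0.75.

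All 4 probe sets of Upk1b gave this order at its upper end. Each had normal prostate 3 and then tumour 4 as its highest arrays, and each had tumours 6 and 8 and normal prostate 5 as the next 3. On the probe sets other than the representative, normal prostate 3 measured 13.39, 14.22 and 13.99, tumour 4 measured 12.85, 14.10 and 13.92, and tumour 8 measured 11.80, 12.69 and 12.01. Their differences between the groups were -0.13, -0.94 and -0.17.

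Upk3a had the widest range of the 5 genes. It measured 4.88, 6.75 and 14.08 at the lowest, median and highest normal array, and 5.17, 6.95 and 13.78 at the lowest, median and highest tumour. It was dim on 6 normal and 5 tumour arrays. Normal prostate 3 at 14.08, tumour 4 at 13.78 and normal prostate 5 at 12.16 were highest, followed by tumours 6 and 8 at 10.85 and 10.67; no other array exceeded 7.99. Relative to its median over 18 arrays, Upk3a was higher by 7.32 on normal prostate 3, 7.03 on tumour 4, 5.41 on normal prostate 5, 4.10 on tumour 6 and 3.92 on tumour 8. The groups overlapped, with a difference of 0.62 ± 1.33 SE. It was 1.51 without normal prostates 3 and 5 and tumour 4, 1.43 without normal prostate 3 and -0.07 without tumour 4. Within the batch with bright spike-ins it was -0.59, against 2.82 within the other, which holds tumours 6 and 8.

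Tumours 6 and 8 thus carried part of the family. On them Upk1b was 2.26 and 2.53 above its median and Upk3a 4.10 and 3.92 above. Upk1a was 1.40 and 1.28 below its median, Upk2 was 0.02 above and 0.17 below, and Upk3b stood at 4.35 and 5.57, against its median of 7.58. Counted as 1 sample, these tumours changed the difference between the groups to -0.72 for Upk1b and to 0.31 for Upk3a. Psca, a surface antigen of prostate and urothelium, was 9.64 and 9.71 there, against at most 4.94 on the other tumours apart from number 4. The urothelial keratin Krt7 was 12.34 and 12.37 on tumours 6 and 8, but 13.14 on tumour 2, where Upk1b was dim at 6.57. The umbrella cell keratin Krt20 was 6.42 on both tumours 6 and 8, at its median over 18 arrays of 6.42. The seminal vesicle mean was 10.83 and 10.85 on these arrays and the smooth muscle mean 13.14 and 13.01; their part in the result was not tested.

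Upk3b was high on the same 3 arrays and moderately high on others. It measured 4.55, 8.01 and 12.40 at the lowest, median and highest normal array, and 4.35, 6.62 and 12.43 at the lowest, median and highest tumour. After tumour 4 at 12.43 and normal prostate 3 at 12.40 came normal prostate 9 at 9.83, normal prostate 5 at 9.75 and normal prostate 4 at 9.48. It was dim on 3 normal and 5 tumour arrays. The second probe set, dim on 5 normal and 8 tumour arrays, had the same 5 highest arrays, at 11.45 and 11.32 on normal prostate 3 and tumour 4 and at 9.55, 9.20 and 8.49 on normal prostates 9, 5 and 4. The groups overlapped, with differences of -0.94 ± 1.09 SE and -1.37 ± 0.98 SE for the probe sets. For the first of them it was -0.75 without normal prostates 3 and 5 and tumour 4, -1.60 without tumour 4 and -0.40 without normal prostate 3, and -0.54 and -1.05 within the batches.

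Normal prostates 9 and 4, where Upk3b stood 2.26 and 1.90 above its median, were also the highest arrays for the mean of the mesothelium markers. Relative to its own median, Upk1a was at -1.07 on normal prostate 9 and at 1.69 on normal prostate 4. The mean of 6 markers was 8.30 on normal prostate 9 and 8.16 on normal prostate 4, in a range of 5.88 to 8.30 over normal and 6.15 to 7.68 over tumour arrays. Gpm6a, a membrane glycoprotein gene of mesothelium and neurons, was 10.23 and 9.19 there, and Lrrn4 was 8.36 and 7.98. On normal prostates 3 and 5 and tumour 4 the mesothelium mean was 6.28, 6.66 and 6.29. Msln (mesothelin) was 5.38, 6.20 and 5.20 on these 3 arrays and the mesothelial transcription factor gene Wt1 was 5.75, 6.15 and 6.22, all dim. These 2 genes did not peak on normal prostates 9 and 4. Msln was highest on tumours 2, 7 and 5, at 9.14, 8.19 and 8.03, against 7.91 and 7.32 on normal prostates 9 and 4. Wt1 was highest on tumour 7 at 8.75, against 7.85 and 8.20. Upk3b was 6.28 on tumour 2 and 7.49 on tumour 7. The part of mesothelium in the level of Upk3b was not tested.

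**Figure D1:**
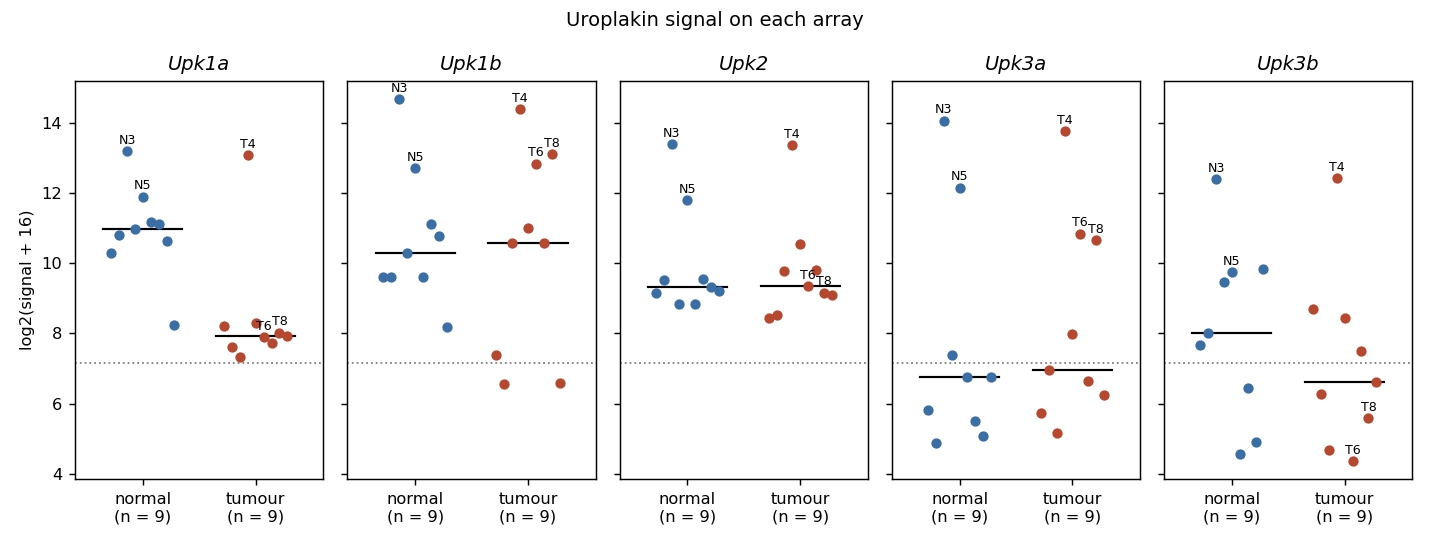
Each point is 1 array; the y axis is log2(signal + 16) of the representative probe set, the black bars are group medians (n = 9 each) and the dotted line is the median over arrays of the 40th percentile. Normal prostates 3 and 5 (N3, N5) and tumour 4 (T4) lie at or near the top for every gene, from 9.75 for Upk3b on normal prostate 5 to 14.69 for Upk1b on normal prostate 3, while tumours 6 and 8 (T6, T8) are high for Upk1b and Upk3a.

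Upk3a apart, the size of the excess on each of the 3 arrays was alike across the family. Averaged over the 5 genes, the level relative to each gene's median was 4.85 for normal prostate 3, 4.71 for tumour 4 and 2.96 for normal prostate 5, and lay between -1.53 and 0.69 on the other arrays. On normal prostate 3 the excess was 3.91 for Upk1a, 4.10 for Upk1b, 4.07 for Upk2 and 4.82 for Upk3b. On tumour 4 it was 3.79, 3.83, 4.04 and 4.85 for the same genes. These arrays of different groups gave each of the 4 genes almost the same excess over the median of 18 arrays. For Upk1a that median, 9.31, lay between the group medians of 10.99 in normal prostates and 7.93 in tumours. Against its own group, Upk1a therefore stood out less on normal prostate 3, at 13.21, than on tumour 4, at 13.10.

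The design's only contrast sets tumours against normal prostates. In the limma fit (a linear model with variance shared across probe sets) over 45037 probe sets, 11.5% were called at a Benjamini-Hochberg adjusted p under 0.05, 6.16% higher and 5.32% lower in tumours. Of the 9 uroplakin probe sets 1 was called, that of Upk1a, lower in tumours. Since the members were chosen with these values known, nothing is read from that count. The call of Upk1a was lost within each spike-in batch, where 6 normal prostates stood against 5 tumours and 3 against 4. The median difference of the 5 genes was -0.39, beside -0.0036 over 18193 genes with 1 probe set each.

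Genes that are not members but belong to urothelium were taken from 3 lists: transcription factors that direct urothelial differentiation, genes of the vesicle traffic that carries uroplakin plaques to the surface, and other genes of urothelial cells. Of 39 genes 38 were measured. Among them limma called 0 higher and 1 lower in tumours, beside 6.91% higher and 7.44% lower (14.4% in all) over 18193 genes. Of the 38, 5 had an unadjusted limma p under 0.05, beside 11946 of 45037 probe sets in the same fit. The median difference was -0.41, beside -0.0036 over all genes. The gene called was Rab27b, the small GTPase that brings uroplakin vesicles to the surface. It measured 9.06, 11.25 and 12.81 at the lowest, median and highest normal array, and 4.97, 7.88 and 12.37 at the lowest, median and highest tumour. As with Upk1a, normal prostate 9 was the lowest normal array and tumour 4 the highest tumour, and the groups overlapped through them; tumours 6 and 8 followed at 10.23 and 10.19. Rab27b fell by 2.69 ± 0.74 SE on the log2 scale (limma adjusted p = 0.0232), and the adjusted p ran from 0.00326 to 0.664 over 29 alternatives. Without normal prostates 3 and 5 and tumour 4 it was the 1 gene called, at -2.87. Within the batches, which hold fewer arrays, the difference was -2.98 and -1.99 and the call was lost (limma adjusted p = 0.0547 and 0.664). The prostate and adipocyte markers given beside Upk1a were also lower in tumours, but they did not follow Rab27b on every array. On tumour 4, the highest tumour for Rab27b, the prostate mean was 6.50. On normal prostate 7 the adipocyte mean was 6.10 and Rab27b was 10.94. The part of these markers in the level of Rab27b was not tested. Without tumour 4, 3 genes were called: Pparg (-1.96) and the basal keratin gene Krt15 (-3.53) joined Rab27b. Without normal prostate 9, 2 were called, Foxa1 (-2.03) and Rab27b.

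**Figure D2:**
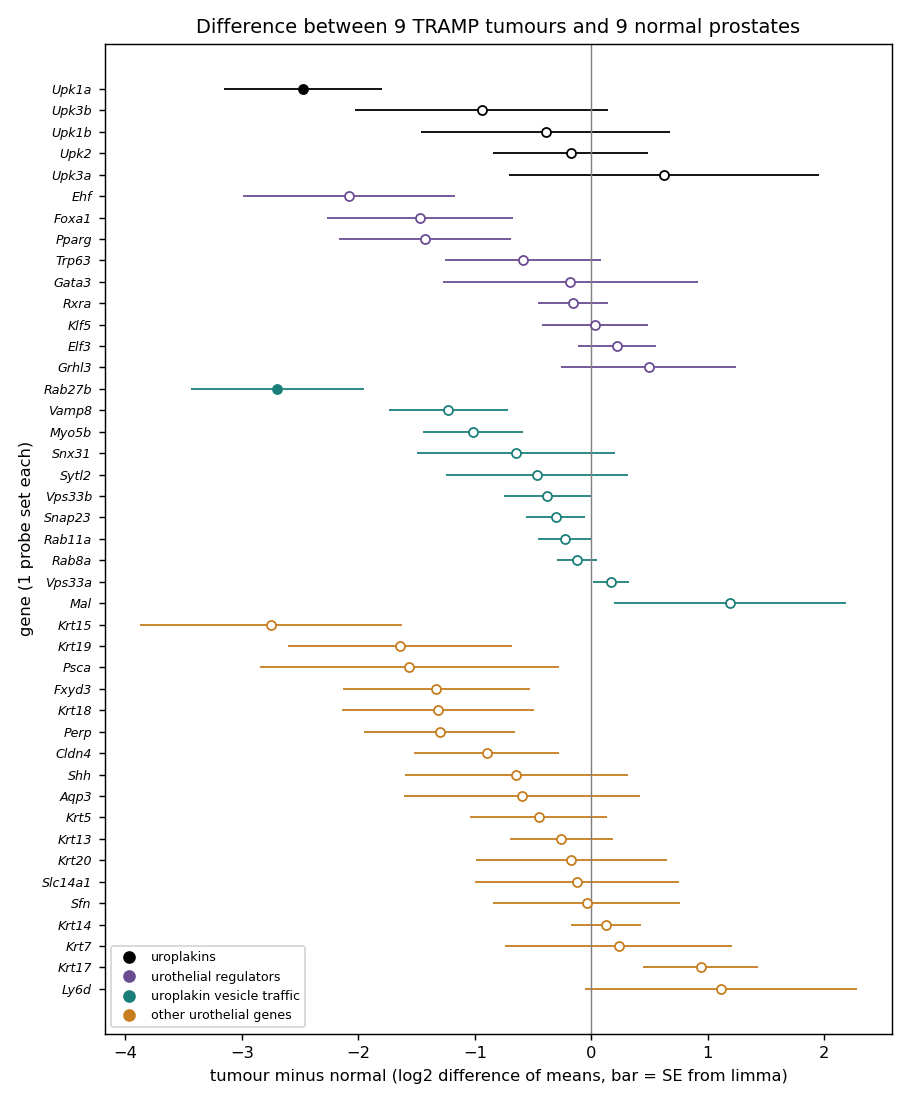
Points give the difference of means, tumour minus normal, in log2(signal + 16) for the 5 uroplakins and 38 other urothelial genes, with SE bars from limma (n = 9 per group); filled points were called and open points were not. Upk1a at -2.48 and Rab27b at -2.69 are the filled points.

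Array by array, many of these genes had the uroplakin pattern at its upper end. Normal prostates 3 and 5 and tumour 4 were the 3 highest of 18 arrays for 11 of the 38 genes and for 3 of the 5 uroplakins (Upk1a, Upk2 and Upk3a), beside 153 of 18193 genes, or 0.841%. This way of counting was chosen after the values were seen and was not tested. In the traffic list it held for Snx31, Rab27b and Sytl2, 3 of 11 genes. By likeness to the mean uroplakin profile over 18 arrays, described below, these ranked 5, 9982 and 11 of 18188 genes. Snx31, a sorting nexin that acts in uroplakin degradation, measured 12.82, 12.66 and 10.42 on normal prostate 3, tumour 4 and normal prostate 5, and at most 8.56 elsewhere. Sytl2, a Rab27 effector gene, measured 11.99, 11.82 and 9.33 there and at most 7.82 elsewhere. Mal, a raft protein gene that acts in the insertion of uroplakin vesicles, was highest on normal prostate 3 and tumour 4, at 13.34 and 13.30. It was 10.98 on normal prostate 5, below normal prostate 9 at 11.58 and tumours 5 and 7 at 11.45 and 11.12. Of the ubiquitous members of the list, Rab8a and Vps33a did not share the pattern. Snap23 was highest on normal prostate 3 and tumour 4, at 10.33 and 10.29, close to tumour 2 at 10.23, and was 9.88 on normal prostate 5. Rab11a was 13.05 and 12.74 on normal prostate 3 and tumour 4, below tumour 5 at 13.32.

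Among 9 regulators the pattern held for 1, Grhl3, a grainyhead factor of umbrella cell differentiation, with values of 10.77 for both normal prostate 3 and tumour 4 and 9.22 for normal prostate 5, and at most 7.79 elsewhere. Pparg, the nuclear receptor that promotes urothelial and fat cell differentiation, was 10.84 on normal prostate 3 and 10.55 on tumour 4, but 9.09 and 8.70 on normal prostates 2 and 4 and 7.40 on normal prostate 5. Normal prostates 2 and 4 also had the highest adipocyte means, 13.00 and 12.72, against 11.57, 9.39 and 7.97 for normal prostates 3 and 5 and tumour 4; the part of adipocytes in the level of Pparg was not tested. Trp63, of basal epithelial cells, was 11.96 and 12.18 on normal prostate 3 and tumour 4. Gata3, a factor of urothelium and of other epithelia, followed another order: normal prostate 9 was highest at 12.91, then tumours 3 and 7 at 12.59 and 12.32, while tumours 2 and 9 were dim at 4.36 and 4.53. Normal prostate 9 and tumours 3 and 7 had seminal vesicle means of 12.09, 15.08 and 14.98. Tumour 5 had the highest such mean, 15.57, with Gata3 at 11.96, while tumour 4 had a mean of 8.34 with Gata3 at 11.99. The part of seminal vesicle in the level of Gata3 was not tested.

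Of 18 other urothelial genes 7 had the same 3 highest arrays: Krt20, Krt5, Psca, Shh, Slc14a1, Aqp3 and Ly6d. By likeness over 18 arrays they ranked 24, 36, 763, 163, 9, 43 and 6988 of 18188 genes. In that order of arrays (normal prostate 3, tumour 4, normal prostate 5), Krt20 measured 11.61, 11.21 and 8.96, and at most 8.42 elsewhere. The water channel gene Aqp3 measured 12.76, 12.71 and 10.66, and at most 8.14 elsewhere. Shh, the hedgehog ligand made by basal urothelium, measured 13.41, 13.32 and 11.62, with tumour 3 next at 10.81. Psca measured 13.46, 13.43 and 11.08, with tumours 8 and 6 next. Of the stratified squamous list 1 of 9 measured genes, the cornified envelope gene Ivl, had the same 3 highest arrays (13.40, 13.13 and 10.31). The mean of that list was also raised there, at 7.98, 8.15 and 7.77. No other normal array was as high as normal prostates 3 and 5. Among tumours only number 2, at 8.43, exceeded tumour 4, though tumour 6 also exceeded normal prostate 5. Krt1 was highest on tumour 4 and normal prostate 3, at 7.95 and 7.88, and Krt10 on normal prostate 3 at 9.55. Krt6a, Krt6b, Lor, Sprr1b and Dsg1a were highest on tumour 2 and Krt4 on tumour 6.

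**Figure D3:**
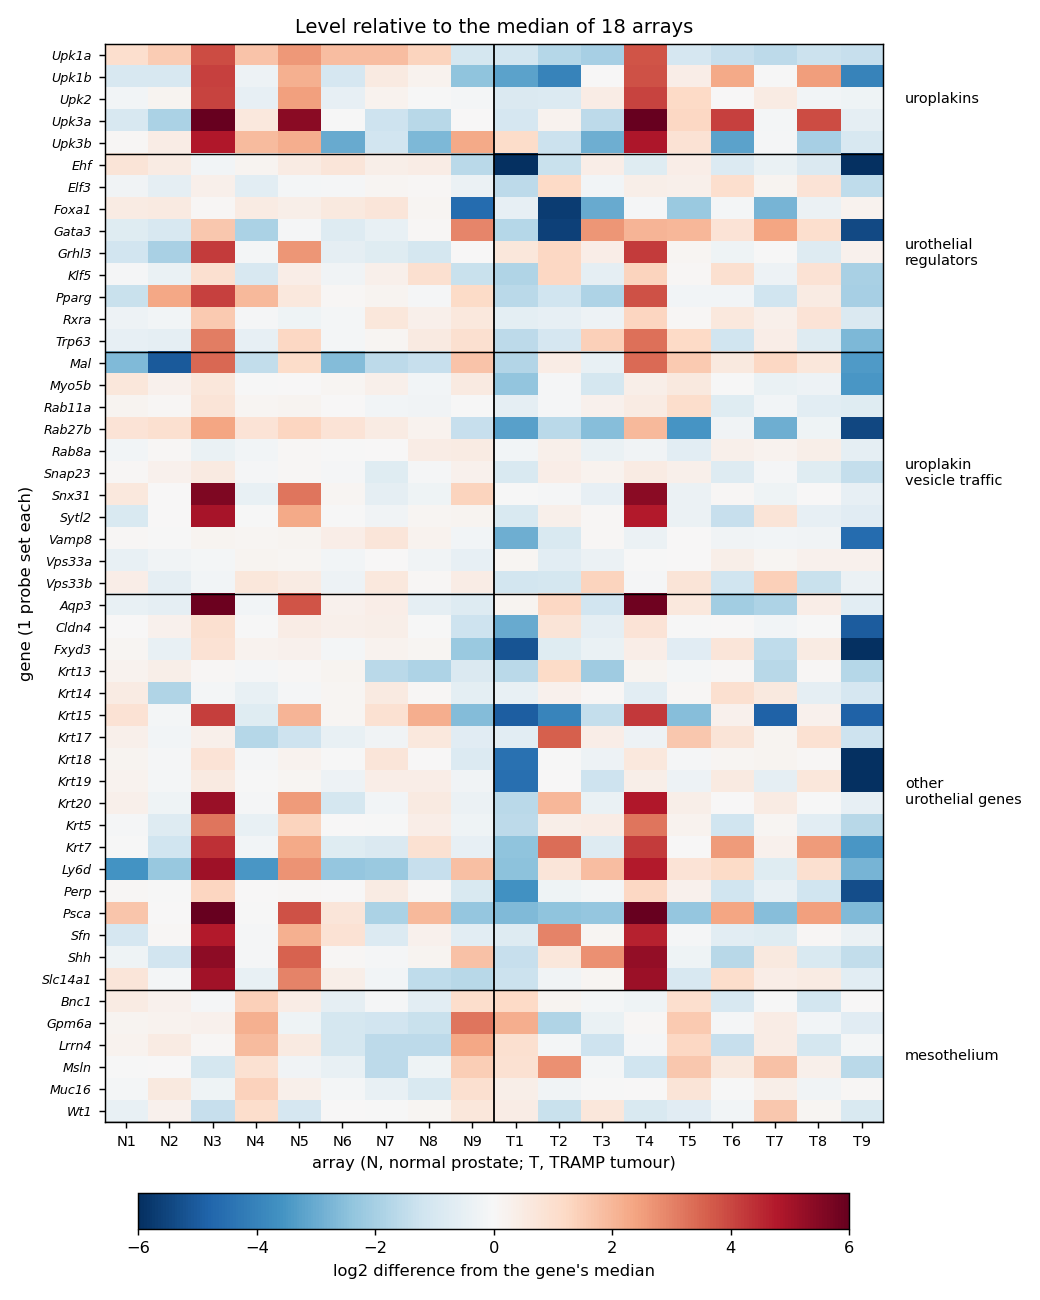
Rows are genes with 1 probe set each, columns are the 18 arrays (N, normal prostate; T, TRAMP tumour), and colour is the log2 difference from the gene's median over arrays, with the scale ending at -6 and 6. The columns N3, T4 and, more weakly, N5 are red for the uroplakins and for genes such as Snx31 and Aqp3, and the mesothelium rows are not.

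The genes with profiles nearest to the mean uroplakin profile over 18 arrays were found among 18188 other genes by the root mean square difference of median-centred log2 values, as a description with no test. The nearest 10 were Gjb6, Vsig2, Lypd3, Cers3, Snx31, Tmem154, Dnmt3l, Hsd17b2, Slc14a1 and Fer1l4, with differences of 0.68 to 0.89. Gjb6, a connexin gene, measured 11.69 on normal prostate 3, 11.51 on tumour 4, 9.04 on normal prostate 5 and at most 7.25 elsewhere. Hsd17b2, which encodes an enzyme that inactivates sex steroids, measured 10.18, 10.76 and 7.34 there and at most 5.72 elsewhere. The urea transporter gene Slc14a1 measured 10.93, 11.02 and 8.88 there and at most 6.96 elsewhere. Fer1l4 was also high on tumours 6 and 8, at 9.64 and 9.62, above normal prostate 5 at 9.44, as Upk1b was. With Pearson correlation as the measure, 4 of these 10 remained among the nearest 10.

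Markers of neighbouring tissue did not all move with the uroplakins. The mean of 9 smooth muscle genes was 12.81 on normal prostate 3, 12.98 on normal prostate 5 and 12.20 on tumour 4, within the upper part of ranges of 9.20 to 13.04 over normal and 7.91 to 13.30 over tumour arrays. It was as high, at 13.04 and 13.30, on normal prostate 9 and tumour 7, whose uroplakin means of 8.45 and 8.45 lay near their groups' medians of 8.57 and 8.45. The mean of prostate secretion and identity genes was 11.41 and 12.60 on normal prostates 3 and 5, within the normal range of 5.93 to 13.73, and 6.50 on tumour 4, within the tumour range of 5.90 to 9.45. The mean of 6 neuroendocrine genes was 9.60 on tumour 4, below only tumours 1 and 9 at 10.87 and 11.25, whose uroplakin means were 7.70 and 7.29. The ratio of 3' to 5' actin signal, which grows as RNA degrades, was 1.71, 1.22 and 0.95 (log2) on normal prostates 3 and 5 and tumour 4, in a range of 0.31 to 2.48 over all arrays. The part of these in the uroplakin levels was not tested.

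**Figure D4:**
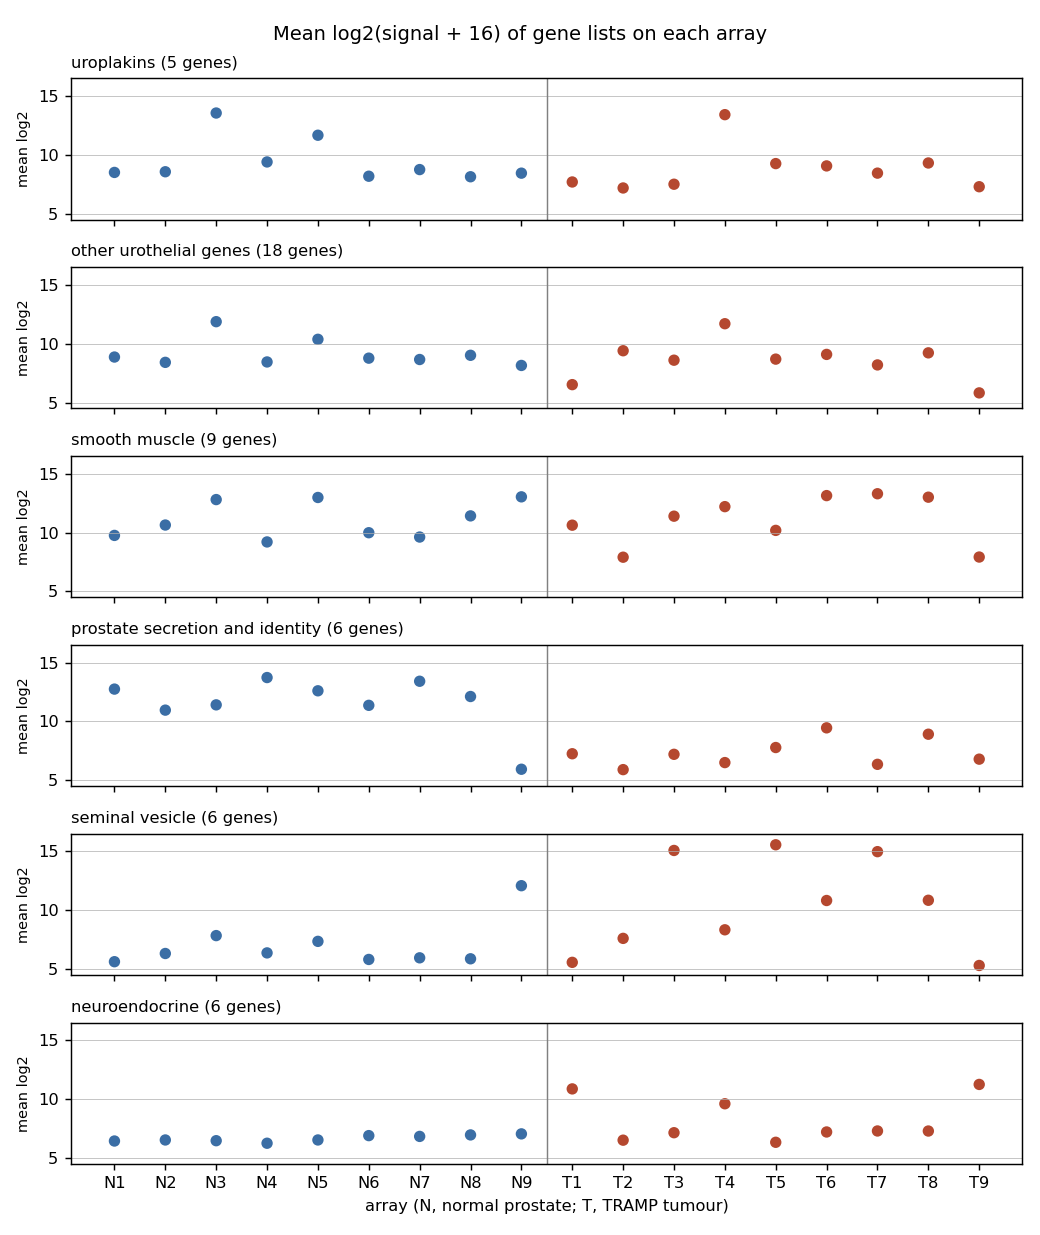
Each panel plots the mean log2(signal + 16) over the measured genes of a list on each of 18 arrays (N, normal prostate; T, TRAMP tumour). The uroplakin and other urothelial panels peak on N3, T4 and N5 (uroplakin means 13.56, 13.42 and 11.67), whereas smooth muscle is also high on N9 and T6 to T8, and seminal vesicle genes are highest on T5, T3 and T7.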

How the data were processed

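The authors deposited linear probe set intensities. The submitters' processing notes name MAS5 as the tool, with a version not given in the sources. MAS5 scales each array by 1 factor: the 2% trimmed mean of the deposited intensities was 500 on all arrays. Groups and numbers came from the sample titles. Of 45101 probe sets, 64 controls were left out, 34945 named 1 gene, 932 several and 9160 none in the platform annotation. Without a build for the arrays, gene coordinates are not given.

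Log2(signal + 16) was tested without a filter (lmFit and eBayes of limma 3.58.1, R 4.3.3; two-sided, Benjamini-Hochberg over 45037 probe sets), after the code was tested on simulated data. A gene was represented by its probe set with the highest mean. Of 109 genes in 12 lists, 10 had no single-gene probe set and were not analysed here. Members and lists were chosen with earlier results of these data known. Named genes were all members, up to 4 called genes and 4 with the largest excess of the highest array per list, and the 10 nearest profiles; others were named after their values were seen. Replicate numbers did not pair the arrays. Alternatives were other pseudocounts, scalings, a filter, blocks and omitted arrays. Figures used matplotlib 3.10.9 in Python 3.11.15.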

Additional observations from a re-analysis of the deposited data

Results flagged for a closer look

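Values are listed here where, within a group of 9 arrays, the gap to the nearest array was large against the group's range, above Dixon's 95% critical value. No chance rate applies to them: the uroplakins were chosen with these values known, and the genes nearest to their profile were chosen for sharing its high arrays. The values are a description and not a test. Among tumours, number 4 stood apart for Upk1a at 13.10 (nearest 8.30), Upk2 at 13.38 (nearest 10.55) and the second Upk3b probe set at 11.32 (nearest 6.26). From the other urothelial lists, whose named genes were picked for the excess of their highest array, it did so for Grhl3 at 10.77, Pparg at 10.55, Snx31 at 12.66, Sytl2 at 11.82 and Aqp3 at 12.71. Among the genes nearest to the uroplakin profile it did so for Gjb6 at 11.51, Lypd3 at 10.02, Cers3 at 11.81, Tmem154 at 10.08, Dnmt3l at 10.72, Hsd17b2 at 10.76 and Slc14a1 at 11.02. Normal prostate 3 stood apart among normal arrays for Trp63 at 11.96 and Tmem154 at 10.07.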

How the results depend on the processing

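The mean difference of the 5 uroplakins, -0.67, moved by less than the SD between arrays of a group under all 30 alternatives. That SD was larger than the difference itself, so this limit could not have shown its loss. The sign turned in 1 alternative: the difference was 0.08 in the batch without bright spike-ins and -0.97 in the other. Without 1 array it ran from -1.25 (without tumour 4) to -0.16 (without normal prostate 3). Upk1a and Upk3b stayed lower in tumours in 29 of 29 alternatives, while Upk1b was higher in 4, Upk2 in 3 and Upk3a lower in 2. The filter on low values removed Upk3a, so that fit gives it no value. Over all probe sets 5172 were called, 3984 to 6298 without 1 array; 2836 were called in the bright spike-in batch alone and 1 in the other, where 4265 had an unadjusted p under 0.05. Calls among the 38 other urothelial genes ran from 1 to 3 without 1 array and were 0 in each batch alone, where fewer arrays entered the fits. In each batch 2 of the 38 had an unadjusted limma p under 0.05. Over 45037 probe sets 10362 had one in the bright spike-in batch and 4265 in the other. Of the calls over all probe sets 53.6% were higher in tumours, 46.1% after quantile normalization and 41.0% with 75th percentile centring, which shifted the median difference by -0.08. With the replicate number as a block 4303 probe sets and 1 other urothelial gene were called; same-numbered arrays deviated together (correlation over 0.1) in 1 of 9 pairs, and in 1 of 9 an array correlated best with its own number.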
